A study of Mus musculus with 13 samples.

Results

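A set of 41 genes of monocytes and macrophages was followed across 13 libraries of mouse skeletal muscle. The genes were chosen by symbol, all 41 were matched among the 49315 gene identifiers of the count table, and all 41 passed the filter on low counts, which kept 16496 genes. They fall into 6 groups by role. The pan-macrophage group holds 13 genes, the resident group 6, the recruited group 7, the lipid-associated group 4, the Fc receptor and adaptor group 8 and the NADPH oxidase group 3. No member had 0 reads in any library.

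The series compared systemic knockout mice of the miR-181a2b2 locus (miR-181a2b2-/-, KO) with animals homozygous for a floxed allele of it (miR-181a2b2flox/flox, flox, called WT in the sample titles), fed a diet labelled HFSC or CHOW. The groups were HFSC KO (replicates 2, 3 and 4, n = 3), HFSC flox (replicates 1, 2, 3 and 4, n = 4), chow KO (replicates 1, 2 and 3, n = 3) and chow flox (replicates 2, 3 and 4, n = 3). The labels do not spell out HFSC, they mention hindlimb ischemia for the series without saying which limb or time any sample stands for, and the Cre line, the age and the sex of the mice could not be learned from them. The source label is skeletal muscle, whereas the extraction protocol names white adipose tissue. The labels do not state that every library is a separate animal, so the spread that the p-values rest on may be partly technical.

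Macrophages of skeletal muscle include resident cells that persist in the connective tissue between fibres and cells that develop from blood monocytes. Most depend on Csf1r, the receptor for the growth factors Csf1 and Il34, and monocytes enter injured muscle through the chemokine receptor Ccr2. After injury these recruited cells engulf debris and then turn into repair macrophages, while macrophages loaded with lipid express a set led by Trem2, Gpnmb, Spp1 and Lgals3. The microRNAs of the deleted locus act by pairing of their seed to the 3' untranslated regions (3' UTRs) of target mRNAs.

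The sequences of both mature 5p microRNAs of the locus are shown because they define the matches counted in the members. Capitals mark the seed, bases 2 to 8, which is the same in both, and the sequences are from RefSeq on build GRCm38.p6 (chr2:38852741-38852763 and chr2:38853845-38853868, plus strand).
miR-181a-5p: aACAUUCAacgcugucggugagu
miR-181b-5p: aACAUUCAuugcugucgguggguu
The 7-base match to this seed, TGAATGT, was searched on the transcribed strand, in 1 annotated 3' UTR per gene, the longest. It was present in 3 of the 41 members, 0 of which had the 8-base match TGAATGTA. Among 13897 tested genes with an annotated 3' UTR, 18.5% had the 7-base match and 6.08% the 8-base match. The median length of the 3' UTR over the members was 790 bases. Lengths over all these tested genes were not compared, so the shares do not tell whether members hold fewer matches for their length. The 3 sites are shown with their flanks because they hold the matches counted, which are in capitals (chr6:124329721-124329727, chr7:128118309-128118315 and chr19:11481485-11481491, all plus strand).
Cd163 site: catatttgTGAATGTgaccactt
Itgam site: tactattaTGAATGTtgtctttt
Ms4a6c site: gtataagtTGAATGTgtgtatta
A match of letters is not a tested site.

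The libraries held 20830943 to 45710227 counts, and 3 counts, the floor for an undetected gene, correspond to 0.0633 to 0.152 CPM (counts scaled by TMM library sizes). At the targeted locus, Mir181a-2 had 0 reads in all 6 KO libraries, 1 read summed over HFSC flox and 3 reads summed over chow flox, and Mir181b-2 had 0 reads in all 13 libraries, so these polyA-selected counts do not check the genotype. The 9 muscle fibre genes, Acta1 and Ckm among them, were high as a sum in all 13 libraries, as the tissue label asks. They summed to 137182 to 169490 CPM in HFSC KO, 150385.5 to 194721 in HFSC flox, 182893 to 230606 in chow KO and 99860 to 211184 in chow flox. A sum does not show that each of the 9 was high in every library. The 7 adipocyte genes, Adipoq among them, summed to 101 to 206 CPM in HFSC KO, 44.5 to 128 in HFSC flox, 57.6 to 91.6 in chow KO and 94.7 to 138 in chow flox. Chow flox libraries stood apart from each other: replicate 3 was the highest of all 13 libraries for 39 of the 41 members, and replicate 4 was the lowest chow flox library for 40. Summed over the 41 members, the level was 860.0 CPM in chow flox replicate 2, 2209 in replicate 3 and 210.2 in replicate 4.

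Per kilobase of annotated exon, the scale used wherever genes are compared with each other, Lyz2 led the set in chow flox with a mean of 235 CPM per kb, followed by Ctss at 58.3, C1qa at 32.1, C1qb at 31.4, Spp1 at 28.5 and Lgals3 at 27.6. In HFSC KO the order began with Lyz2 at 83.2, C1qa at 22.8, C1qb at 22.6 and Ctss at 17.1 CPM per kb, with Spp1 at 3.13. The lowest group mean was that of chow KO for 40 of the 41 members, and the highest was that of chow flox for 38. The spread within a group also differed: the median coefficient of variation over the members was 13.3% in HFSC KO, 25.6% in HFSC flox, 42.7% in chow KO and 89.9% in chow flox. The map of the 41 genes by library shows these differences side by side.

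**Figure D1:**
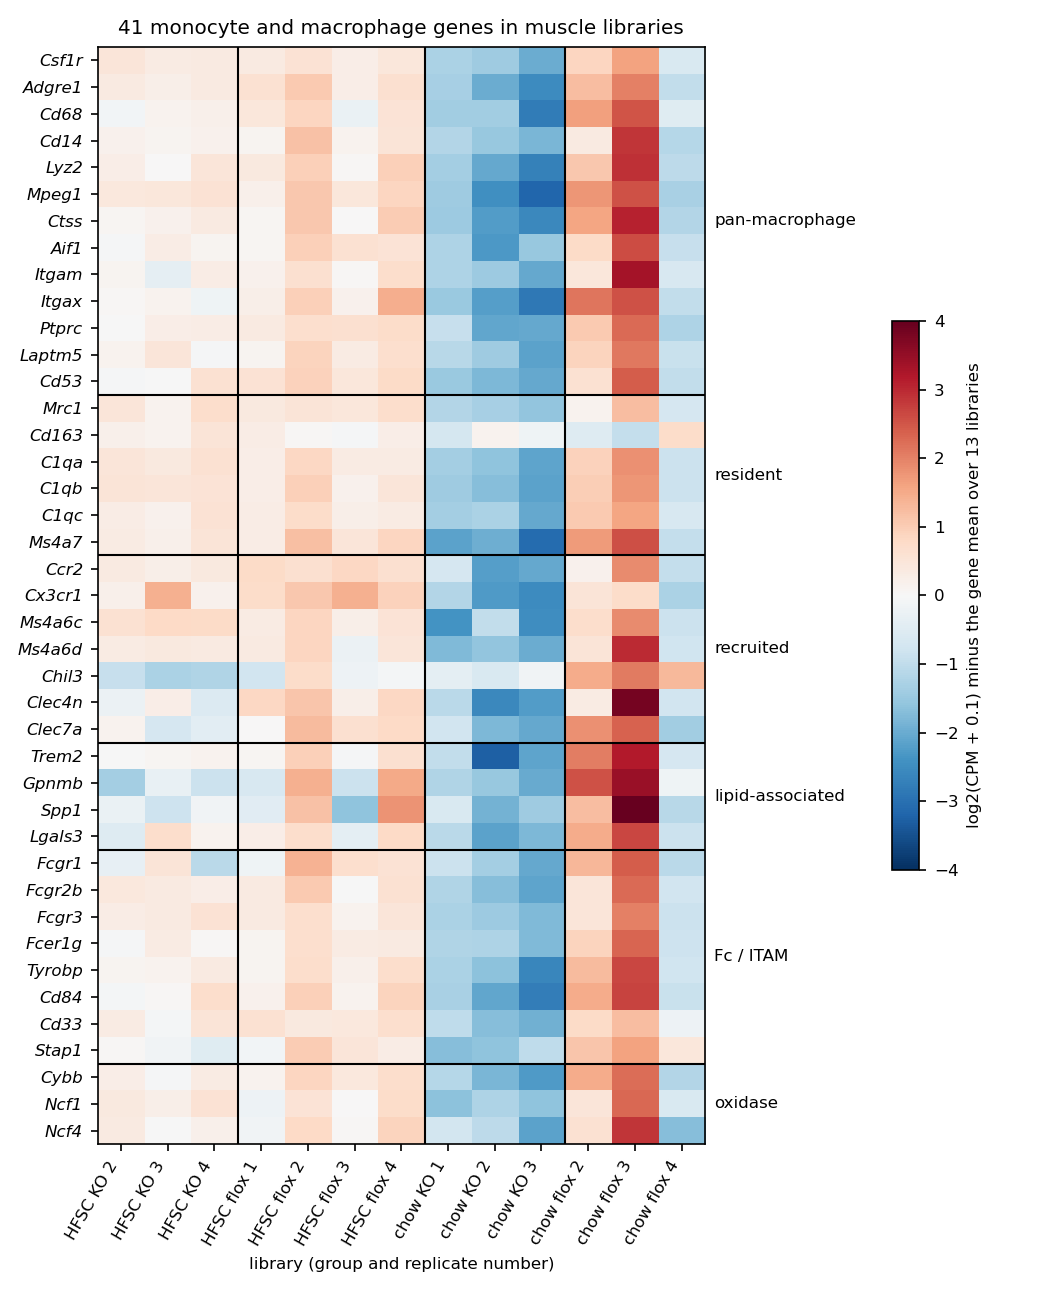
Level of each of the 41 genes (down the page, in role groups) in each of the 13 libraries (across), as log2(CPM + 0.1) minus the gene's mean over the libraries, red above and blue below that mean. The 3 chow KO columns are blue for every gene but Cd163. Chow flox replicate 3 is the highest library for 39 of the 41 genes and the lowest for Cd163. Chow flox replicate 4 is below the mean for every gene but Cd163, Chil3 and Stap1.

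Chow KO muscle had less RNA of nearly the whole set than chow flox muscle. In edgeR's quasi-likelihood test with Benjamini-Hochberg adjustment over all tested genes, the test behind every adjusted p here, with calls at an adjusted p under 0.05, 40 of 41 members fell in chow KO and Cd163 did not pass. Of all tested genes 10.1% were called lower in this comparison. The median log2 fold change of the members was -3.12, against -0.01 over all tested genes. The chow KO libraries all lay below the chow flox libraries for 32 members, against 13.9% of all tested genes, and the 9 others were Ptprc, Cd163, Ccr2, Cx3cr1, Clec7a, Spp1, Fcgr1, Cybb and Ncf4. In bulk RNA, fewer macrophages and less RNA of these genes per macrophage cannot be told apart.

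The calls on chow depended on single libraries and on how the model was fitted. With all chow libraries kept, 0 of 41 members were called when only the chow groups entered the fit, where 2 of all genes were called, and 40 had an unadjusted p under 0.05. With the replicate number as a block 0 were called, where 0 of all genes were called. With no low-count filter 26 were called, where 4.18% of all genes were called in either direction. With chow flox replicate 3 left out, 0 of 41 members were called, 38 had an unadjusted p under 0.05 and the median log2 fold change was -2.10. Without chow KO replicate 2 or chow KO replicate 3, 0 were called in each case, 40 had an unadjusted p under 0.05 and the medians were -3.08 and -2.87. In all 3 of these fits 0 of all genes tested were called. Without chow flox replicate 4, 40 members were called and the median was -3.59, where 42.8% of all genes tested were called in either direction. Without chow flox replicate 2, 34 were called, against 2.68% of all genes tested, and without chow KO replicate 1, 33, against 5.48%. Chow flox replicate 4 lay above every chow KO library for 33 members and within the chow KO range for 8.

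All 13 pan-macrophage genes fell in chow KO, with a median log2 fold change of -3.43. Lyz2, the lysozyme of macrophages and other myeloid cells, had 110.0, 91.2 and 127 CPM in HFSC KO, 119, 178, 94.4 and 176 CPM in HFSC flox, 35.3, 21.98 and 14 CPM in chow KO and 194, 689.6 and 43.9 CPM in chow flox. Chow flox replicate 3 was far above all others, and chow flox replicate 4 was the only chow flox library near the chow KO range, though above it. Its log2 fold change in chow KO against chow flox was -3.70 ± 0.74 (SE) with an adjusted p of 0.0179. Mpeg1, which encodes the pore-forming protein perforin-2, had 30.7, 31.3 and 34.0 CPM in HFSC KO, 26.1, 47.7, 30.9 and 41.3 CPM in HFSC flox, 8.49, 4.04 and 2.41 CPM in chow KO and 78.0, 132 and 9.26 CPM in chow flox. All 7 HFSC libraries lay between chow flox replicates 2 and 4, and chow KO replicate 1 lay just under chow flox replicate 4. Mpeg1 fell in chow KO with a log2 fold change of -3.86 and an adjusted p of 0.0169. Ctss, the lysosomal protease cathepsin S, had 21.2, 22.5 and 25.8 CPM in HFSC KO, 20.9, 42.5, 20.4 and 40.2 CPM in HFSC flox, 7.23, 4.20 and 3.23 CPM in chow KO and 59.6, 169 and 8.77 CPM in chow flox. The chow KO libraries were the lowest and chow flox replicates 2 and 3 the highest. Ctss fell in chow KO with a log2 fold change of -4.01 (adjusted p 0.0178).

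Csf1r (ENSMUSG00000024621, chromosome 18, 61100598 to 61132149, plus strand), the growth factor receptor of the lineage, had 25.7, 23.0 and 23.4 CPM in HFSC KO, 23.7, 27.4, 22 and 24.95 CPM in HFSC flox, 7.64, 6.83 and 4.52 CPM in chow KO and 33.3, 55.8 and 12.1 CPM in chow flox. The HFSC libraries were closely spaced, and the chow KO libraries did not overlap with any other group. Its log2 fold change in chow KO against chow flox was -2.41 ± 0.40 (SE), with an adjusted p of 0.0154. Without chow flox replicate 3 these differences were -2.36 for Lyz2, -3.16 for Mpeg1, -2.84 for Ctss and -1.87 for Csf1r. The other 9 genes of the group, which include the F4/80 gene Adgre1, the lysosomal membrane gene Cd68, the lipopolysaccharide co-receptor Cd14, the integrin chains Itgam and Itgax, the calcium-binding Aif1, the leukocyte phosphatase Ptprc, the lysosomal Laptm5 and the tetraspanin Cd53, had log2 fold changes of -4.16 (Itgax) to -2.67 (Laptm5) in this comparison. Csf1r overlaps Hmgxb3 on the opposite strand, which is also counted, and the strand setting of the counting is not given in the sources used here.

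Of the 6 resident markers 5 fell in chow KO against chow flox, and the median log2 fold change was -2.57. Whether role groups differed from each other was not tested. C1qa, C1qb and C1qc encode the chains of complement C1q, which tissue macrophages secrete. C1qb had 24.5, 24.3 and 24.9 CPM in HFSC KO, 20.8, 33.1, 19.2 and 24.2 CPM in HFSC flox, 6.31, 5.19 and 3.79 CPM in chow KO and 34.1, 59.1 and 9.34 CPM in chow flox. C1qa had 23.7, 21.96 and 25.7 CPM in HFSC KO, 20.3, 29.7, 20.98 and 21.1 CPM in HFSC flox, 6.45, 5.39 and 3.83 CPM in chow KO and 31.6, 59.3 and 9.22 CPM in chow flox. C1qc had 16.7, 15.6 and 20.6 CPM in HFSC KO, 16.9, 22.7, 16.1 and 17.2 CPM in HFSC flox, 5.32, 5.67 and 3.23 CPM in chow KO and 28.4, 41.3 and 8.84 CPM in chow flox. In all 3 genes the chow KO libraries lay below every other library, and chow flox replicate 4 lay between chow KO and the HFSC libraries. The log2 fold changes in chow KO were -2.74 ± 0.49 (SE) for C1qb, -2.67 ± 0.48 for C1qa and -2.46 ± 0.42 for C1qc, each with an adjusted p of 0.0154. Mrc1 (ENSMUSG00000026712, chromosome 2, 14229392 to 14332057, plus strand), the mannose receptor CD206, had 25.6, 19.96 and 29.7 CPM in HFSC KO, 23.8, 26.3, 24.9 and 29.4 CPM in HFSC flox, 7.95, 7.15 and 6.08 CPM in chow KO and 20.2, 43.1 and 11.4 CPM in chow flox. Its groups did not overlap on chow, and 6 of the 7 HFSC libraries lay above chow flox replicate 2.

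The log2 fold change of Mrc1 in chow KO was -1.82 ± 0.36 (SE), with an adjusted p of 0.0178. Ms4a7, a tetraspan membrane protein gene of mature macrophages, had the largest fall of the resident group, -4.25 ± 0.71 (SE) on the log2 scale. Without chow flox replicate 3 the differences were -2.13 for C1qb, -2.003 for C1qa, -2.01 for C1qc, -1.19 for Mrc1 and -3.51 for Ms4a7. Cd163 (ENSMUSG00000008845, chromosome 6, 124304656 to 124330527, plus strand), the haemoglobin scavenger receptor, is shown by library after its values were seen, and had 9.74, 9.24 and 12.04 CPM in HFSC KO, 10.4, 8.71, 8.18 and 10.1 CPM in HFSC flox, 5.15, 9.35 and 7.41 CPM in chow KO and 5.79, 4.33 and 14.03 CPM in chow flox. Here the order of the chow flox libraries was turned round, with replicate 4 the highest of all 13 libraries and replicate 3 the lowest. Its log2 fold change in chow KO against chow flox was -0.13 ± 0.35 (SE, adjusted p 0.812), with -0.44 when chow flox replicate 3 was left out and 0.53 when chow flox replicate 4 was. Cd163 is 1 of the 3 members with a seed match, shown above, and of the other pair Itgam fell in chow KO by 3.68 and Ms4a6c by 3.03 on the log2 scale.

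**Figure D2:**
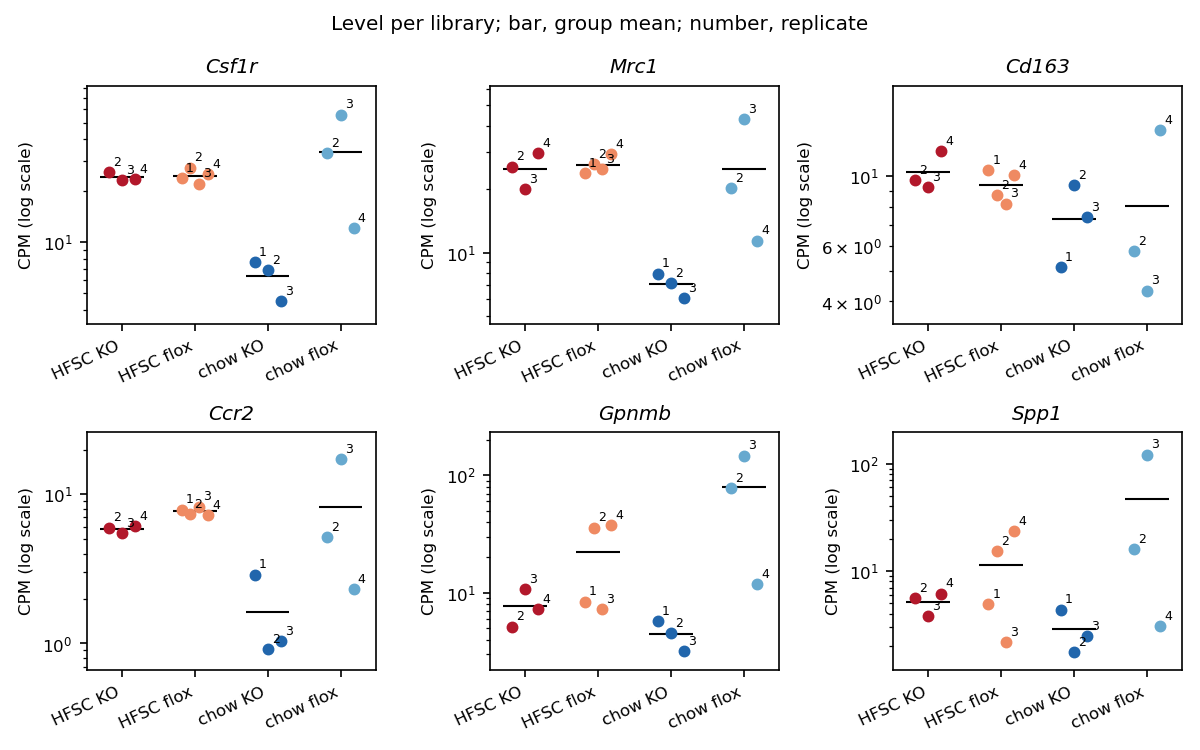
CPM on a log axis of Csf1r, the resident markers Mrc1 and Cd163, the recruited marker Ccr2 and the lipid-associated markers Gpnmb and Spp1, with 1 point per library numbered by replicate and a bar at the group mean. Csf1r, Mrc1 and Ccr2 were tightly grouped in both HFSC groups, Gpnmb and Spp1 were spread within HFSC flox, and Cd163 was highest in chow flox replicate 4, at 14.03 CPM, and lowest in chow flox replicate 3, at 4.33 CPM.

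The recruited group fell as a whole on chow, 7 of 7, with a median log2 fold change of -3.03. Ccr2 (ENSMUSG00000049103, chromosome 9, 124101950 to 124113557, plus strand), the receptor for the monocyte chemokine Ccl2, had 5.98, 5.51 and 6.11 CPM in HFSC KO, 7.90, 7.35, 8.27 and 7.24 CPM in HFSC flox, 2.90, 0.919 and 1.03 CPM in chow KO and 5.20, 17.3 and 2.32 CPM in chow flox. Chow KO replicate 1 was above chow flox replicate 4, so the groups overlapped. Its log2 fold change was -2.34 ± 0.60 (SE), with an adjusted p of 0.0292. Clec7a, which encodes the fungal glucan receptor dectin-1, had 2.68, 1.51 and 1.82 CPM in HFSC KO, 2.499, 6.03, 3.85 and 4.37 CPM in HFSC flox, 1.40, 0.639 and 0.517 CPM in chow KO and 9.06, 13.03 and 0.877 CPM in chow flox. Ms4a6d had 2.94, 3.05 and 3.04 CPM in HFSC KO, 3.04, 4.31, 1.98 and 3.29 CPM in HFSC flox, 0.614, 0.719 and 0.517 CPM in chow KO and 3.39, 19.0 and 1.296 CPM in chow flox. Ms4a6c had 2.61, 3.02 and 2.97 CPM in HFSC KO, 2.16, 3.14, 1.98 and 2.51 CPM in HFSC flox, 0.239, 0.799 and 0.215 CPM in chow KO and 2.82, 6.46 and 0.877 CPM in chow flox. Clec7a overlapped between the chow groups, with chow KO replicate 1 above chow flox replicate 4. Both Ms4a6 genes, members of the tetraspan family of Ms4a7, were lowest in chow KO without overlap, but near-identical copies of this family may share reads.

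The log2 fold changes in chow KO were -3.15 for Clec7a, -3.67 for Ms4a6d and -3.03 for Ms4a6c. Without chow flox replicate 3 they were -1.24 for Ccr2, -2.57 for Clec7a, -1.97 for Ms4a6d and -2.20 for Ms4a6c. Cx3cr1, the fractalkine receptor of patrolling monocytes and many resident macrophages, fell by 2.51 on the log2 scale, and Clec4n, which encodes the mannan receptor dectin-2, by 4.70. Both reached 3 counts or fewer in at least 1 library, and the annotated span of Cx3cr1 overlaps several counted genes, Xirp1 and Wdr48 among them. Chil3 (ENSMUSG00000040809, chromosome 3, 106147554 to 106167564, minus strand), the chitinase-like protein Ym1 of alternatively activated macrophages in the mouse, had the fewest reads of the recruited markers. There were 3, 2 and 2 Chil3 reads in HFSC KO, 4, 11, 9 and 13 in HFSC flox, 6, 4 and 6 in chow KO and 41, 59 and 23 in chow flox. All 3 chow flox libraries stood above the other 10, and the log2 fold change in chow KO against chow flox was -2.47 ± 0.45 (SE), with an adjusted p of 0.0159.

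All 4 lipid-associated markers fell in chow KO, with a median log2 fold change of -4.08, the most negative of the 6 role medians. Gpnmb (ENSMUSG00000029816, chromosome 6, 49036546 to 49070929, plus strand), a transmembrane glycoprotein of lipid-loaded and phagocytic macrophages, had 5.15, 10.8 and 7.29 CPM in HFSC KO, 8.41, 35.9, 7.28 and 37.7 CPM in HFSC flox, 5.73, 4.56 and 3.19 CPM in chow KO and 77.6, 147 and 11.8 CPM in chow flox. Chow flox replicates 2 and 3 were above all others, and HFSC flox replicates 2 and 4 were several times higher than HFSC flox replicates 1 and 3. Its log2 fold change in chow KO against chow flox was -4.13 ± 0.87 (SE), with an adjusted p of 0.0195. Spp1 (ENSMUSG00000029304, chromosome 5, 104435118 to 104441050, plus strand), the secreted matrix protein osteopontin, had 5.58, 3.77 and 6.14 CPM in HFSC KO, 4.86, 15.3, 2.17 and 23.6 CPM in HFSC flox, 4.37, 1.76 and 2.46 CPM in chow KO and 16.1, 122 and 3.05 CPM in chow flox. Chow flox replicate 3 was far above the other 12 libraries, and chow KO replicate 1 was above chow flox replicate 4. The log2 fold change of Spp1 was -4.02 ± 1.15 (SE), with an adjusted p of 0.043, and it was -1.78 without chow flox replicate 3.

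Trem2, the lipid-sensing receptor that signals through Tyrobp, had 2.72, 2.92 and 3.07 CPM in HFSC KO, 2.90, 5.42, 2.69 and 4.37 CPM in HFSC flox, 1.36, 0.1998 and 0.560 CPM in chow KO and 11.8, 25.9 and 1.72 CPM in chow flox. Its chow KO libraries lay below all others, with chow flox replicate 4 next. Lgals3, the galactose-binding lectin galectin-3, had 11.2, 25.9 and 17.5 CPM in HFSC KO, 19.3, 25.6, 12.2 and 27.4 CPM in HFSC flox, 7.54, 3.52 and 4.52 CPM in chow KO and 44.4, 101 and 8.73 CPM in chow flox. Chow flox replicate 4 lay just above chow KO replicate 1, and chow flox replicates 2 and 3 lay above all 7 HFSC libraries. The log2 fold changes in chow KO were -4.17 ± 0.81 (SE) for Trem2 and -3.30 ± 0.69 (SE) for Lgals3, and without chow flox replicate 3 they were -3.26 for Trem2, -2.39 for Lgals3 and -3.35 for Gpnmb.

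Fc receptors and their signalling adaptors fell in chow KO in 8 of 8 cases, with a median log2 fold change of -2.94. Fcgr2b, the inhibitory receptor for immunoglobulin G, had 10.8, 10.3 and 9.86 CPM in HFSC KO, 10.4, 16.9, 7.94 and 12.5 CPM in HFSC flox, 3.44, 2.44 and 1.81 CPM in chow KO and 11.4, 39.7 and 4.69 CPM in chow flox. Fcgr3, an activating receptor of the same family, had 7.77, 8.06 and 9.47 CPM in HFSC KO, 8.14, 10.03, 6.98 and 8.91 CPM in HFSC flox, 2.56, 2.24 and 1.81 CPM in chow KO and 8.83, 26.0 and 3.43 CPM in chow flox. Tyrobp, the adaptor DAP12 that carries an ITAM signalling motif, had 4.58, 4.65 and 5.47 CPM in HFSC KO, 4.56, 6.84, 4.89 and 6.86 CPM in HFSC flox, 1.67, 1.28 and 0.603 CPM in chow KO and 10.3, 27.4 and 2.40 CPM in chow flox. In each of the 3 genes chow KO was lowest and chow flox replicate 3 highest, without overlap between the chow groups. Cd84, a homophilic adhesion receptor of the SLAM family, had 3.87, 4.26 and 6.75 CPM in HFSC KO, 4.59, 8.05, 4.48 and 7.62 CPM in HFSC flox, 1.60, 0.879 and 0.517 CPM in chow KO and 11.6, 26.8 and 2.17 CPM in chow flox. Cd84 had the same order of groups. The log2 fold changes were -2.85 for Fcgr2b, -2.53 for Fcgr3, -3.48 for Tyrobp and -3.73 for Cd84, and without chow flox replicate 3 they were -1.68 for Fcgr2b, -1.51 for Fcgr3, -2.45 for Tyrobp and -2.80 for Cd84. The high-affinity receptor Fcgr1, the shared gamma chain Fcer1g, the sialic acid receptor Cd33 and the adaptor Stap1 had log2 fold changes of -3.37 (Stap1) to -2.31 (Cd33). Fcgr2b and Fcgr3 are paralogues, so reads may be shared between them.

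The 3 oxidase genes encode parts of the phagocyte enzyme that makes superoxide, and 3 of 3 fell in chow KO, with a median of -3.02. Cybb, the catalytic membrane subunit, had 10.7, 8.59 and 11.1 CPM in HFSC KO, 9.76, 16.1, 11.8 and 14.4 CPM in HFSC flox, 3.96, 2.44 and 1.77 CPM in chow KO and 24.7, 41.9 and 3.89 CPM in chow flox. Ncf1, the cytosolic organiser p47phox, had 4.69, 4.23 and 5.39 CPM in HFSC KO, 3.14, 5.27, 3.65 and 5.996 CPM in HFSC flox, 1.09, 1.48 and 1.12 CPM in chow KO and 5.07, 17.9 and 2.32 CPM in chow flox. Ncf4, the cytosolic subunit p40phox, had 1.43, 1.082 and 1.29 CPM in HFSC KO, 0.979, 1.98, 1.13 and 2.09 CPM in HFSC flox, 0.614, 0.479 and 0.172 CPM in chow KO and 1.71, 8.52 and 0.267 CPM in chow flox. For Ncf1 the chow groups did not overlap, whereas for Cybb and Ncf4 chow flox replicate 4 lay inside the chow KO range. The log2 fold changes were -3.10 for Cybb, -2.78 for Ncf1 and -3.02 for Ncf4, and without chow flox replicate 3 they were -2.43 for Cybb, -1.63 for Ncf1 and -1.28 for Ncf4. Ncf1 overlaps Gtf2ird2 on the opposite strand.

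**Figure D3:**
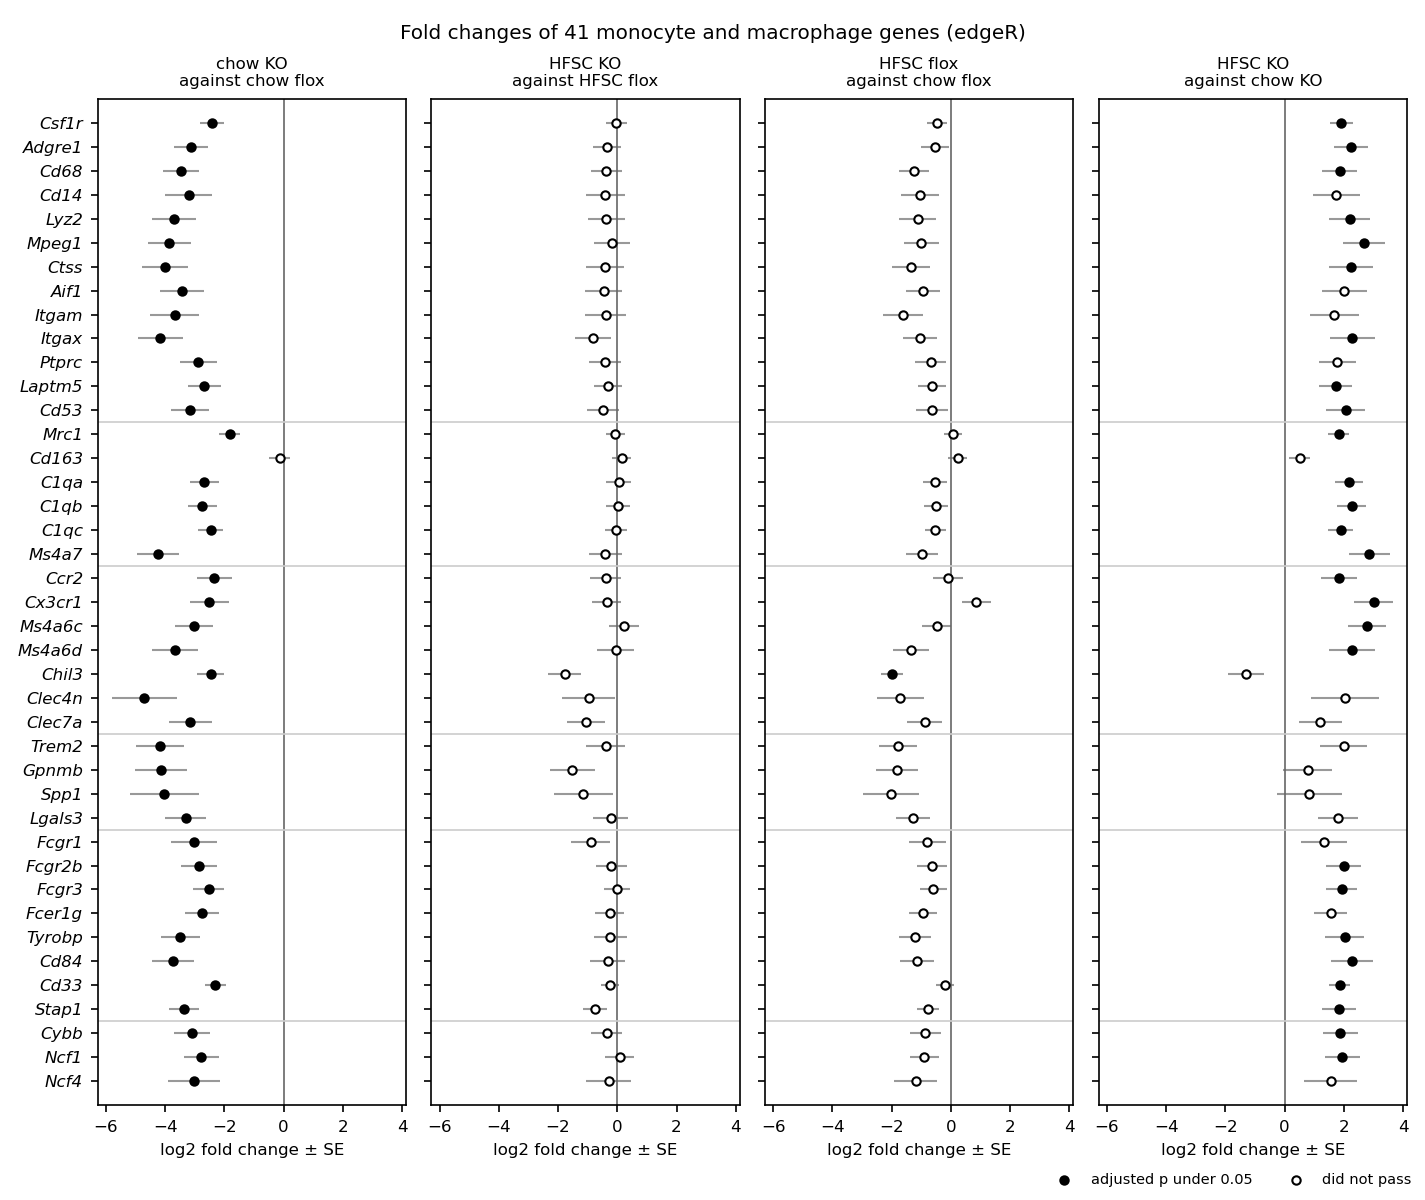
Fold change of each of the 41 genes on the log2 scale (across), in the 4 comparisons between a pair of groups. Bars are the SE derived from the F statistic, and filled points mark an adjusted p under 0.05 in edgeR. Filled points stand left of 0 for 40 genes in chow KO against chow flox and right of 0 for 26 genes in HFSC KO against chow KO, and 1 filled point, Chil3, stands in HFSC flox against chow flox.

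In KO muscle many of the members were higher on HFSC diet than on chow. In HFSC KO against chow KO, 26 of 41 members rose and 0 fell, with a median log2 fold change of 1.92 against 0.02 over all tested genes. Of all tested genes 14.9% were called higher in this comparison. For 36 members every HFSC KO library was above every chow KO library, against 26.8% of all tested genes. This comparison shares the chow KO libraries with the genotype comparison on chow, so low chow KO values enter both. Leaving out chow KO replicate 1 left 14 called, leaving out replicate 2 of that group 9, and leaving out its replicate 3 only 7. There were 12 called without HFSC KO replicate 2 or 3 and 10 without HFSC KO replicate 4. The share of all tested genes called in either direction also fell in these fits, from 25.5% with all libraries. It was 16.7%, 12.5% and 8.58% without chow KO replicates 1, 2 and 3, and 17.5%, 16.8% and 10.6% without HFSC KO replicates 2, 3 and 4. Over all 13 fits that left out 1 library, the median ran from 1.73 to 2.23.

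By role, 9 of 13 pan-macrophage genes rose in HFSC KO against chow KO, as did 5 of 6 resident, 4 of 7 recruited, 0 of 4 lipid-associated, 6 of 8 Fc receptor and adaptor and 2 of 3 oxidase genes. Cx3cr1 had the largest difference, 3.01 ± 0.65 (SE) on the log2 scale with an adjusted p of 0.00869, followed by Ms4a7 at 2.86 ± 0.71, Ms4a6c at 2.77 ± 0.64 and Mpeg1 at 2.67 ± 0.70. The rank of Cx3cr1 is uncertain, since it had 3 counts or fewer in at least 1 library and its annotated span overlaps Xirp1 and Wdr48. The smallest adjusted p-values were 0.00521 for Cd33, 0.0058 for Mrc1 and 0.00703 for Csf1r. Csf1r rose by 1.92 ± 0.39 (SE), Mrc1 by 1.82 ± 0.36, C1qb by 2.26 ± 0.48 and Ccr2 by 1.83 ± 0.59. Without chow KO replicate 3 the 7 called were C1qa, C1qb, C1qc, Cd33, Csf1r, Cx3cr1 and Mrc1, with 1.73 for Csf1r and 1.73 for Mrc1.

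The lipid-associated genes did not pass in this comparison. Their log2 fold changes in HFSC KO against chow KO were 0.78 ± 0.82 (SE, adjusted p 0.495) for Gpnmb, 0.84 ± 1.11 (adjusted p 0.591) for Spp1, 1.80 ± 0.67 (adjusted p 0.0631) for Lgals3 and 1.99 ± 0.79 (adjusted p 0.0794) for Trem2. Whether they differ from the other members was not tested. Cd163 was also not called, at 0.50 ± 0.35 (SE), and its HFSC KO libraries overlapped with chow KO. Chil3, with 3, 2 and 2 reads in HFSC KO against 6, 4 and 6 in chow KO, was the only member with a negative difference. The others that did not pass were Aif1, Cd14, Clec4n, Clec7a, Fcer1g, Fcgr1, Itgam, Ncf4 and Ptprc, with log2 fold changes of 1.21 (Clec7a) to 2.02 (Clec4n).

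On HFSC diet no member passed between the genotypes, which does not show that they were alike. In HFSC KO against HFSC flox 0 of 41 members were called in edgeR, where 0.0182% of all tested genes were called in either direction, and 0 members were called by DESeq2 or by limma voom with sample quality weights. An unadjusted p under 0.05 was reached by 1 member, Chil3, with 3, 2 and 2 reads in HFSC KO, at or under the floor, against 4, 11, 9 and 13 in HFSC flox, and its adjusted p of 0.295 was the smallest. The median log2 fold change was -0.36, 36 of 41 differences were negative, and every HFSC KO library was below every HFSC flox library for 4 members, Itgax, Ptprc, Ccr2 and Chil3, against 5.31% of all tested genes. Ccr2 had 5.98, 5.51 and 6.11 CPM in HFSC KO, against 7.90, 7.35, 8.27 and 7.24 CPM in HFSC flox. That is a narrow gap with a log2 fold change of -0.39 ± 0.52 (SE) and an adjusted p of 0.848. Itgax, which encodes the integrin chain CD11c and is given by library after its values were seen, had 2.26, 2.46 and 1.96 CPM in HFSC KO, against 2.63, 4.41, 2.499 and 6.21 CPM in HFSC flox, with a log2 fold change of -0.82 ± 0.61. Ptprc, at -0.42 ± 0.54, is the marker of all leukocytes and is not limited to macrophages.

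Role medians in HFSC KO against HFSC flox were -0.01 for resident, -0.39 for recruited, -0.78 for lipid-associated and -0.39 for pan-macrophage genes. The largest negative differences apart from Chil3 were those of Gpnmb, -1.52 ± 0.76 (SE, adjusted p 0.517), Spp1, -1.15 ± 0.997 (adjusted p 0.744), and Clec7a, -1.06 ± 0.64 (adjusted p 0.603). For Gpnmb, HFSC flox replicates 1 and 3, at 8.41 and 7.28 CPM, lay within the HFSC KO values of 5.15 to 10.8 CPM, and HFSC flox replicates 2 and 4 were at 35.9 and 37.7 CPM. Spp1 was likewise at 4.86 and 2.17 CPM in HFSC flox replicates 1 and 3 and at 15.3 and 23.6 CPM in replicates 2 and 4. Macrophage elastase Mmp12, from the list of other lipid-associated genes, was named after its values were seen and had 0.788, 3.34 and 1.46 CPM in HFSC KO and 2.84, 12.2, 3.82 and 24.5 CPM in HFSC flox.

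The diet comparison in flox muscle gave 1 call among the members. In HFSC flox against chow flox, Chil3 fell by 1.99 on the log2 scale with an adjusted p of 0.0494, where 0.303% of all tested genes were called lower. The HFSC flox libraries had 4, 11, 9 and 13 Chil3 reads, against 41, 59 and 23 in chow flox, and it was the only member without overlap, against 5.6% of all tested genes. The median log2 fold change of the members was -0.91, and 9 had an unadjusted p under 0.05. Both values depended on 1 chow flox library each way: the median was 0.15 with 0 members called without chow flox replicate 3, and -1.41 with 23 called, 22 lower and 1, Cd163, higher, without chow flox replicate 4. Of all tested genes 0.173% were called in either direction without chow flox replicate 3 and 8.58% without chow flox replicate 4. The call of Chil3 held in the fits without HFSC flox replicate 2 and chow flox replicate 4 and was lost in those without any other library, and without chow flox replicate 3 its adjusted p was 0.181. The lipid-associated genes had log2 fold changes of -2.03 ± 0.94 (SE) for Spp1, -1.83 ± 0.71 for Gpnmb, -1.78 ± 0.63 for Trem2 and -1.28 ± 0.58 for Lgals3, none of which passed, and without chow flox replicate 3 they were 0.25 for Spp1, -1.02 for Gpnmb, -0.84 for Trem2 and -0.34 for Lgals3. Cx3cr1 was the member with the most positive difference, 0.86 ± 0.50 (SE, adjusted p 0.501), with 1.65, 2.13, 2.77 and 1.92 CPM in HFSC flox, against 1.41, 1.68 and 0.343 CPM in chow flox.

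Whether the genotype difference depended on the diet was tested as an interaction, the difference between KO and flox on HFSC minus that on chow. Of the 41 members 0 passed in edgeR, where 0.0% of all tested genes were called, and 37 had an unadjusted p under 0.05. DESeq2 called 32 members, where 12.9% of all tested genes were called, and limma voom with sample quality weights 32, where 42.8% were. Without chow flox replicate 4, edgeR called 38 members and 34.9% of all tested genes. The median interaction was 2.74 on the log2 scale, the smallest adjusted p was 0.0625, and Csf1r had 2.38 ± 0.52 (SE) and Ms4a7 3.84 ± 0.88. Without chow flox replicate 3 the median was 1.80 and 30 had an unadjusted p under 0.05.

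Levels were next compared between role groups within each library, as the mean log2 CPM of a group, centred on each gene's mean over the 13 libraries, minus the same for the pan-macrophage genes. These differences are a description, given with no test. For the lipid-associated genes it was -0.69 to -0.27 in HFSC KO, -0.97 to 0.42 in HFSC flox, -0.35 to 0.51 in chow KO and 0.25 to 0.84 in chow flox. For the resident genes it was 0.08 to 0.29 in HFSC KO, -0.27 to 0.02 in HFSC flox, -0.07 to 0.60 in chow KO and -1.19 to 0.41 in chow flox. For the recruited genes it was -0.36 to -0.02 in HFSC KO, -0.15 to 0.19 in HFSC flox, 0.10 to 0.35 in chow KO and -0.28 to 0.28 in chow flox. The relative level of the lipid-associated genes was highest in chow flox replicates 2 and 3 and lowest in HFSC flox replicate 3 and HFSC KO replicate 2, while that of the resident genes was lowest in chow flox replicate 3. These log2 CPM hold a prior count of 2, which shrinks differences of genes with few reads. The recruited group holds Cx3cr1, Chil3 and Clec4n, which had 3 counts or fewer in some libraries. The part of this shrinkage in the relative levels was not tested.

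A ratio within a library removes its scaling, so the counts of each other member were also set against those of Csf1r, as counts per 100 Csf1r counts. In chow KO against chow flox this ratio separated the groups for 4 of 40 genes, higher for Mrc1 and lower for Cd68, Ms4a7 and Gpnmb. Over all other tested genes the ratio to Csf1r was higher in chow KO without overlap for 85.1% and lower for 0.376%. Csf1r is itself a member and was lower in chow KO without overlap, so this background is largely set by the denominator. It is no measure of how unusual 1 member higher and 3 lower are. Mrc1 had 99.4, 86.9 and 127 in HFSC KO, 100.4, 96.3, 113 and 118 in HFSC flox, 104, 105 and 134 in chow KO and 60.5, 77.2 and 94.3 in chow flox per 100 Csf1r counts. Gpnmb had 20.1, 46.8 and 31.1 in HFSC KO, 35.4, 131, 33.1 and 151 in HFSC flox, 75.0, 66.7 and 70.5 in chow KO and 233, 264 and 97.5 in chow flox. The Gpnmb ratio was lowest in HFSC KO and the pair of HFSC flox replicates 1 and 3, and highest in chow flox replicates 2 and 3. Cd163 had 37.9, 40.2 and 51.4 in HFSC KO, 44.0, 31.9, 37.2 and 40.4 in HFSC flox, 67.4, 137 and 164 in chow KO and 17.4, 7.75 and 116 in chow flox per 100 Csf1r counts. In chow flox its ratio was low in replicates 2 and 3 and high in replicate 4, and both HFSC groups were narrow.

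In HFSC KO against HFSC flox 6 ratios separated the groups, all lower in HFSC KO, those of Itgax, Ptprc, Ccr2, Chil3, Clec4n and Clec7a, where 4.05% of all other tested genes had a lower ratio without overlap and 4.32% a higher one. Ccr2 had 23.3, 24.0 and 26.1 counts per 100 Csf1r counts in HFSC KO, against 33.3, 26.9, 37.6 and 29.0 in HFSC flox. Clec7a had 10.4, 6.56 and 7.77 in HFSC KO, against 10.5, 22.04, 17.5 and 17.5 in HFSC flox. The ratios of Mpeg1, C1qa, C1qb and Ms4a7 were higher in HFSC KO than in chow KO without overlap, and those of Cd163, Chil3 and Gpnmb lower. Of all other tested genes 0.697% had a higher ratio without overlap and 86.2% a lower one. Csf1r itself rose between these groups, so these shares are likewise largely set by the denominator. In HFSC flox against chow flox the ratios of Mrc1 and Cx3cr1 were higher and that of Chil3 lower. Among all other tested genes 2.15% were higher and 0.558% lower. These separations carry no test, and a ratio shows unequal change of a pair of genes, not which of them changed.

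**Figure D4:**
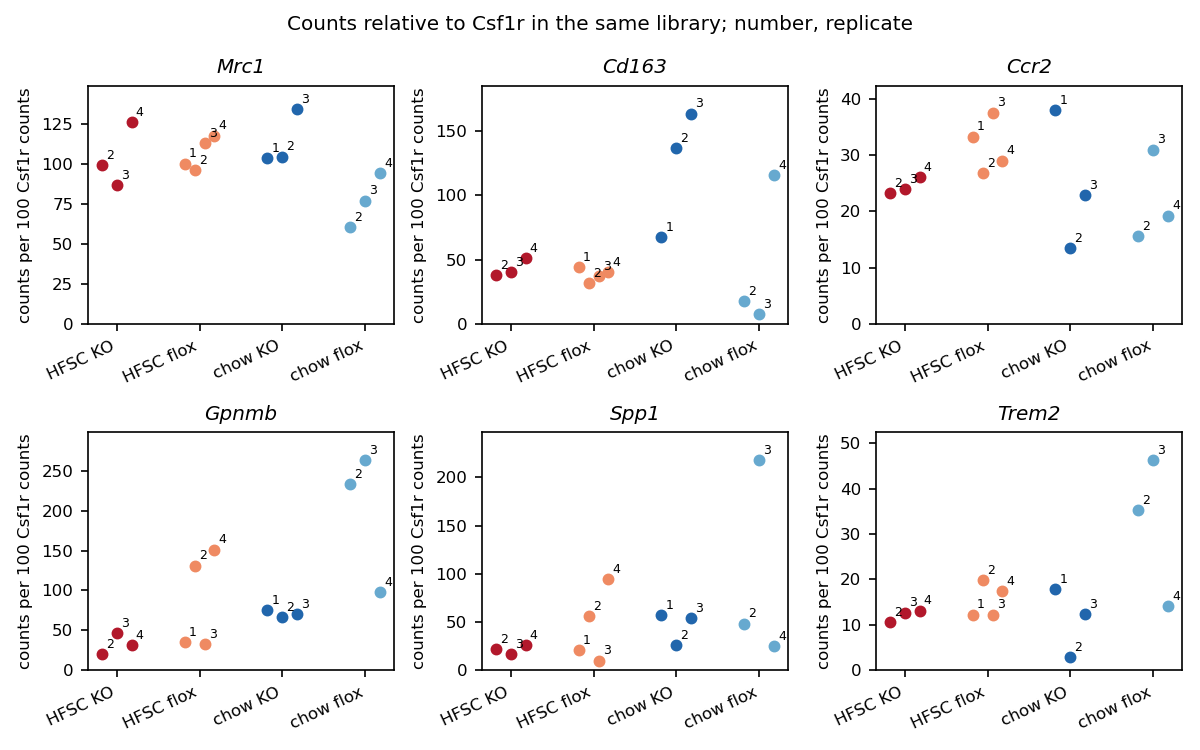
Counts of Mrc1, Cd163, Ccr2, Gpnmb, Spp1 and Trem2 per 100 Csf1r counts in the same library, with 1 point per library numbered by replicate, on linear axes that start at 0. Gpnmb ran from 20.1 to 46.8 in HFSC KO, 33.1 to 151 in HFSC flox, 66.7 to 75.0 in chow KO and 97.5 to 264 in chow flox, while Mrc1 was between 60.5 and 134 in every library.

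Other genes of the same biology were counted from 5 lists of known roles. Of all tested genes 10.1% were called lower in chow KO against chow flox, and 14.9% higher in HFSC KO against chow KO. In the other direction, 228 of 16496 were called higher in the first comparison and 1742 lower in the second. Signalling and oxidase partners of the Fc receptors fell as a list in chow KO, 12 of 12, with a median log2 fold change of -2.56, among them the exchange factor Vav1 (-3.49 ± 0.71, SE), the adaptor Lcp2 (-3.36 ± 0.71) and the oxidase subunit Cyba (-2.40 ± 0.51). The diet comparison in KO had 6 of these 12 higher, with Vav1 at 2.501 ± 0.71 and the phosphatase SHIP1 gene Inpp5d at 1.81 ± 0.42. Growth factor and transcription factor genes gave 5 lower and 1 higher of 11 tested in chow KO. The lower ones included Spi1, which encodes the lineage factor PU.1 (-3.01 ± 0.67, SE), Csf2ra (-2.93 ± 0.56) and Csf2rb (-2.33 ± 0.59), the chains of the GM-CSF receptor, and Cebpa (-1.24 ± 0.30), a factor of myeloid cells that adipocytes also use, and the higher one was Nr1h3, the oxysterol receptor LXR-alpha, at 0.44, named for being the 1 higher gene. In HFSC KO against chow KO 3 of 11 rose, Cebpa (1.42 ± 0.31), the Csf1r ligand Il34 (0.80 ± 0.23) and Csf2ra (1.67 ± 0.56).

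Among 14 tested further resident markers 4 fell in chow KO, the scavenger receptor Stab1 (-1.71 ± 0.30, SE), the sialic acid receptor Siglec1 (-2.56 ± 0.61), the selenium carrier Selenop (-0.71 ± 0.20) and the transglutaminase chain F13a1 (-1.49 ± 0.42), and the list's median was -0.64. Between the diets in KO, 5 of these 14 rose, Stab1 (1.39 ± 0.29) and the lectin Mgl2 (0.91 ± 0.22) among them, and 1 fell, the transcription factor Maf (-0.95 ± 0.24). Among 14 further lipid-associated genes 7 fell in chow KO, led by the lipid carrier Apoe (-2.49 ± 0.51, SE), the lysosomal lipase Lipa (-2.01 ± 0.43), the proton pump subunit Atp6v0d2 (-3.80 ± 0.86) and Mmp12 (-5.57 ± 1.27). Of the same 14, HFSC KO against chow KO had 5 higher, among them Apoe (1.85 ± 0.50), Cd9 (1.02 ± 0.27) and Cd36 (0.75 ± 0.19), and 1 lower, Syngr1 (-0.98 ± 0.27). Summed, the further resident list had 556 to 713 CPM in chow KO and 606 to 782 in chow flox. The further lipid-associated list had 1295 to 1326 CPM in chow KO and 1357 to 2928 in chow flox. How much of this RNA came from cells other than macrophages was not tested. Of 9 tested further monocyte genes 3 fell in chow KO, the coagulation factor F10, Plac8 and haptoglobin Hp, with Plac8 at -3.30 ± 0.91 (SE). The diet comparison in KO gave 2 higher, Hp and Ly6c1, which endothelial cells also express. Beside these counts stand 10.1% of all tested genes lower in chow KO and 14.9% higher in HFSC KO against chow KO. In lists this short, 1 or 2 calls are near these shares. In HFSC KO against HFSC flox and in HFSC flox against chow flox, 0 genes of these 5 lists were called in edgeR, with at most 2 and 4 genes of any 1 list at an unadjusted p under 0.05.

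Markers of several other cell types were called in the same comparisons, and their part in these results was not tested. The shares over all tested genes were 10.1% lower in chow KO against chow flox and 14.9% higher in HFSC KO against chow KO. All 8 fibroblast genes, Col1a1 and Pdgfra among them, fell in chow KO against chow flox, with a median log2 fold change of -1.88, and all 8 rose in HFSC KO against chow KO, with a median of 1.86. Their summed level was 2408 to 2942 CPM in HFSC KO, 2844 to 4085 in HFSC flox, 393 to 601 in chow KO and 1205 to 6370 in chow flox. Cell cycle genes gave 7 of 8 lower in chow KO and 8 of 8 higher in HFSC KO against chow KO, and summed to 16.8 to 31.4 CPM in HFSC KO, 19.6 to 38.6 in HFSC flox, 2.59 to 4.98 in chow KO and 6.17 to 32.6 in chow flox. Endothelial genes gave 2 of 7 lower in chow KO and 7 of 7 higher in HFSC KO against chow KO, and summed to 446 to 488 CPM in HFSC KO, 322 to 506 in HFSC flox, 174 to 215 in chow KO and 204 to 382 in chow flox. Lymphocyte genes gave 5 of 9 tested lower in chow KO and 3 higher in HFSC KO against chow KO, and summed to 4.76 to 7.29 CPM in HFSC KO, 6.81 to 8.51 in HFSC flox, 1.64 to 1.94 in chow KO and 2.10 to 17.0 in chow flox.

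Of the 10 neutrophil genes 2 passed the low-count filter, and 1 of these, Csf3r, fell in chow KO. The 10 genes summed to 1.15 to 1.46 CPM in HFSC KO, 1.46 to 4.61 in HFSC flox, 0.0431 to 1.23 in chow KO and 0.343 to 45.2 in chow flox, where replicate 3 held S100a8 at 11.8 CPM and S100a9 at 15.5 CPM, and Ly6g, Mpo and Elane had at most 1 read in every library. In chow flox replicate 3, the library highest for 39 members, several members that neutrophils also express, such as Itgam, Lyz2, Cybb, Ncf1 and Ncf4, stand beside this signal, and its part in them was not tested. Osteoclasts share Gpnmb, Spp1 and Atp6v0d2 with lipid-associated macrophages, and of the 4 tested osteoclast genes 2 fell in chow KO, Acp5 and Ctsk, and 1 rose in HFSC KO against chow KO, Ctsk. Dendritic cell genes gave 0 of 7 called in chow KO, with 3 at an unadjusted p under 0.05, and 1 higher in HFSC KO against chow KO, Xcr1. Mast cell genes gave 1 of 5 tested lower in chow KO and 1 higher in HFSC KO against chow KO, Kit in both. Such single calls are near the shares over all tested genes, 10.1% lower and 14.9% higher in these comparisons. Red blood cell genes gave 0 of 5 tested in chow KO, with 0 at an unadjusted p under 0.05, and 5 of 5 higher in HFSC KO against chow KO. Against HFSC flox, 1 of the 5, the haemoglobin gene Hba-a1, was higher in HFSC KO, with a log2 fold change of 1.23 ± 0.16 (SE) and an adjusted p of 0.0347, and all 5 had an unadjusted p under 0.05 and lay above HFSC flox without overlap, in a comparison where 3 of all genes were called. The red blood cell genes summed to 109 to 147 CPM in HFSC KO, 47.7 to 69.4 in HFSC flox, 54.9 to 84.4 in chow KO and 55.8 to 69.4 in chow flox. Muscle fibre genes gave 0 of 9 called in chow KO against chow flox, with 3 at an unadjusted p under 0.05. They gave 1 higher and 1 lower in HFSC KO against chow KO, and 1 lower in HFSC flox against chow flox. The most negative log2 fold change among the 9 was -4.32 in HFSC KO against chow KO and -3.42 in HFSC flox against chow flox. The part of this fibre gene difference in the diet comparisons was not tested. Adipocyte genes gave 0 of 7 in chow KO against chow flox, with 1 at an unadjusted p under 0.05, and 4 higher in HFSC KO against chow KO.

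Promoters were searched because members moved together on chow. RefSeq promoters of build GRCm38.p6, 250 bases before to 50 after a start, were matched by symbol for 32 of 41 members, and 7 motifs were searched on both strands. GAGGAA, the core bound by PU.1, was present for 19 of 32 members (59.4%) and for 31.3% of 27025 genes with a promoter. AGGAAGT was present for 11 of 32 (34.4%) and for 10.7% of genes, and the joined GAGGAAGT, which overlaps both, for 4 of 32 (12.5%) and 3.69%. The AP-1 motif TGAGTCA was present for 4 of 32 (12.5%), Cd68, Cd84, Gpnmb and Itgax, and for 5.95% of genes. The motifs of the MITF and TFE factors, TCACATG and TCATGTG, were present for 2 and 4 members, 6.25% and 12.5%, and for 4.50% and 4.31% of genes, and the E-box CACGTG for 0 of 32 and 8.09% of genes. A match is a description of letters in this window and not a tested site.

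The promoters of a resident gene, a pan-macrophage gene and a pair of lipid-associated genes are shown as examples, with AGGAAGT (C1qc, Ctss and Spp1) or TGAGTCA (Gpnmb) on either strand in capitals, and each is written on the gene's own strand. They were chosen for holding a match: the promoter of a second listed Spp1 start, chr5:104435942-104436241, and that of Cd163, chr6:124304401-124304700, held neither of these motifs.
C1qc promoter, chr4:136892865-136893164, minus strand: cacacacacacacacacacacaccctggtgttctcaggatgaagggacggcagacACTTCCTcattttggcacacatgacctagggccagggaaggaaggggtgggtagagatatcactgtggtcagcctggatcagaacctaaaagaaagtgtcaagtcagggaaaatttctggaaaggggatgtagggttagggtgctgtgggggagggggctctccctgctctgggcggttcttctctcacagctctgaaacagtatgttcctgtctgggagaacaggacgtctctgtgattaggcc
Ctss promoter, chr3:95526536-95526835, plus strand: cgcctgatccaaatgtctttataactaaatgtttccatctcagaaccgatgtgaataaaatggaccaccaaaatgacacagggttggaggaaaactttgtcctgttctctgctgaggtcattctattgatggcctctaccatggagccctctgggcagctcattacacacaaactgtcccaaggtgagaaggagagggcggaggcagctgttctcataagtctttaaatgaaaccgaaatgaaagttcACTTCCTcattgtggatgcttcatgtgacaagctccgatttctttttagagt
Spp1 promoter, chr5:104434861-104435160, plus strand: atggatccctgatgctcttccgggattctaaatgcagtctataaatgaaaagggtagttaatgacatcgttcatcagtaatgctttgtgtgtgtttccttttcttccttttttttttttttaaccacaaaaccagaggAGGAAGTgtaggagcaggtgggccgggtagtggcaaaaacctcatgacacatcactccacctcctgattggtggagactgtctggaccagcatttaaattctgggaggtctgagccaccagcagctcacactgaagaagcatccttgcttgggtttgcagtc
Gpnmb promoter, chr6:49036268-49036567, plus strand: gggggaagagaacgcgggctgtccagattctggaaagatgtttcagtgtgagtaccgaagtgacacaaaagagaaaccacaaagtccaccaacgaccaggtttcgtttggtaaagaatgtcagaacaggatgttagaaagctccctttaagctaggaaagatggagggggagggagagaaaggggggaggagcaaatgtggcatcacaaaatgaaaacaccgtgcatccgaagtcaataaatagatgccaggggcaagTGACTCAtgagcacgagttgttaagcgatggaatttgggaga
Of these 4 genes, C1qc and Ctss rose in HFSC KO against chow KO, and Spp1 and Gpnmb did not pass.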

How the data were processed

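RNA was measured by polyA-selected RNA-seq in 13 libraries of mouse skeletal muscle. The values are raw read counts per Ensembl gene identifier, deposited without normalization. According to the submitters' processing notes, Trimmomatic 0.36, STAR 2.5.2b, featureCounts of Subread 1.5.2 and build GRCm38 were used; what each did, the annotation, the strand setting and the handling of multimapping reads are not stated there, so reads of near-identical copies (Ms4a6c and Ms4a6d, the Fcgr genes, Chil3 and Lyz2 with their paralogues) and of overlapping genes are uncertain. Of 49315 identifiers, 345 had no symbol. The libraries held 20830943 to 45710227 counts, and counting intervals and floors cover counting error only.

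The 41 genes, the other lists and the tests were chosen with earlier results of these data known. Genes were kept by edgeR's filterByExpr, which left 16496. Counts were scaled by TMM and tested with edgeR 4.0.16 (R 4.3.3) by the robust quasi-likelihood test, in 1 model of 4 group means over all 13 libraries, with Benjamini-Hochberg adjustment over all tested genes and a threshold of 0.05. The 5 contrasts were both genotype differences, both diet differences and their interaction; contrasts share groups, so their values are given side by side only. CPM are TMM-scaled. SE is not a fitted standard error but was derived from the edgeR test, as the absolute log2 fold change divided by the square root of the F statistic. Values by library are given for up to 4 members of each of the 6 role groups with the highest mean CPM and for members called in the HFSC genotype, flox diet or interaction contrasts, and from each other list up to 4 called genes of smallest p per contrast; exceptions are named. Alternatives were RLE scaling, library totals, DESeq2 1.42.0, no filter on low counts, limma 3.58.1 voom with quality weights, the replicate number as a block, only the groups compared, and leaving out each library in turn. Replicates of a group differed by more than sampling noise, with a chi-square per degree of freedom of 10.5 to 193. Data were simulated for 16496 genes with the real library sizes, and with a mean and a trended dispersion per gene that all groups shared. Known changes were placed in genes of at least 1 CPM on average. There the test recovered 53.7% of 2-fold and 97.0% of 4-fold changes between chow KO and chow flox. Between HFSC KO and HFSC flox it recovered 70.1% and 95.5%. The simulation did not copy the unequal spread of the members, whose median coefficient of variation was 13.3% in HFSC KO and 89.9% in chow flox. These rates therefore do not give the power for the members.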

Additional observations from a re-analysis of the deposited data

Results flagged for a closer look

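For 2 members, 1 of the 4 HFSC flox libraries stood far from the other 3, with a gap to its nearest neighbour above the 95% limit for 4 samples. C1qa was at 29.7 CPM in HFSC flox replicate 2, against 20.3, 20.98 and 21.1 CPM in replicates 1, 3 and 4. C1qc was at 22.7 CPM in HFSC flox replicate 2, against 16.9, 16.1 and 17.2 CPM in replicates 1, 3 and 4. HFSC flox was the only group of 4 libraries and was examined for all 41 members, and chance alone gives about 1 such library in 20 groups.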

How the results depend on the processing

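In chow KO against chow flox, 40 members were called with all libraries, 26 with no low-count filter, 0 with the replicate block and 0 with only the groups compared, and leaving out 1 library gave 0 to 40. Of all tested genes 11.5% were called in either direction with all libraries, 4.18% with no low-count filter and 42.8% without chow flox replicate 4. In HFSC KO against HFSC flox, 0 members were called under every alternative run. In HFSC flox against chow flox, 1 member was called, 0 with RLE scaling, 0 with library totals, 16 with limma voom, 0 with the replicate block, 0 with only the groups compared, and 0 to 23 with 1 library left out. Of all tested genes 0.418% were called there in the main fit, 25.1% with limma voom and 8.58% without chow flox replicate 4, the fit with 23. In HFSC KO against chow KO, 26 were called, 18 with library totals, 32 with limma voom, 9 with no low-count filter, 13 with the replicate block, and 7 to 34 with 1 library left out. Of all tested genes 25.5% were called in the main fit, 20.9% with library totals and 43.1% with limma voom. With no low-count filter 9.74% were called, and with the replicate block 14.4%. In the interaction, 0 were called, 32 with DESeq2, 32 with limma voom, 1 with no low-count filter, 0 with the replicate block, and 0 to 38 with 1 library left out. Of all tested genes 12.9% were called there with DESeq2, 42.8% with limma voom and 34.9% without chow flox replicate 4, the fit with 38. The difference of Cd163 in chow KO against chow flox turned to 0.41 with limma voom and to 0.22 with the replicate block, and ran from -0.44 to 0.53 with 1 library left out. The difference of Spp1 in HFSC flox against chow flox ran from -2.69 to 0.25. The cause of these changes was not tested.

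The labels do not say that equal replicate numbers mark a shared animal, litter or batch. Of 16 same-numbered pairs, 1 had a correlation of deviations over 0.1, in a range of -0.34 to 0.109, so the numbers were not taken as pairs. Over all genes, the median difference on the log2 scale was -0.35 with library totals and -0.01 with TMM in chow KO against chow flox, and 0.21 with library totals and 0.02 with TMM in HFSC KO against chow KO. Differences of Chil3, Cx3cr1, Clec4n and Stap1 rest on libraries with 3 counts or fewer.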
